A study of Mus musculus with 3 samples.

Results

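Tumor-infiltrating leukocytes from mice given the IL-10/2-Trikine were compared with those from mice given mono-IL-10, gene by gene and in 5 kinds of leukocyte side by side, to ask which transcripts moved in every lineage and which moved in 1 lineage only. No gene measured in all 5 kinds was at least 2-fold higher or at least 2-fold lower in every one of them. At 1.5-fold, 2 genes were higher everywhere, Lgals1 and Crem, and 3 were lower everywhere, Cmss1, Lars2 and Tgfbr1. With B cells left aside, differences of at least 2-fold were held by 1 to 3 gates. Among these were cell division genes, higher in T and NK cells, and Retnla, Ccl24 and Arg1, higher in macrophages and monocytes.

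The cells were live CD45+ leukocytes sorted from subcutaneous tumors of KP1, an established murine line of small-cell lung cancer, grown from 500000 injected cells in female B6129SF1/J mice bought at 5 to 6 weeks of age. All groups therefore shared the same single tumor line, host strain and CD45+ sort. Starting on day 7, cytokine was injected at 3 µg on alternate days up to day 19, when tumors were collected. It was mono-IL-10 (a monomeric engineered IL-10) or the IL-10/2-Trikine. The latter is mono-IL-10 joined to a mutant IL-2 that binds the IL-2 receptor chain Il2rb but not the common gamma chain. By the study's design this mutant does not signal alone and brings Il2rb to the IL-10 receptor. Another library combined the IL-10/2-Trikine with an antibody against the checkpoint receptor PD-1, at 200 µg on days 7, 11, 15 and 19. Its values are set beside the others as a description and chose no gene. Titles and treatment labels name the antibody for the combination alone, although the protocol text can also be read as giving it to every group. Each group was 1 droplet library, the number of mice pooled in it is not stated in the sources used here, and no untreated library was analyzed. No difference below can therefore be set against the spread between mice, no test was run, and the 95% intervals cover counting error only.

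IL-10 binds a receptor made of Il10ra and Il10rb and signals mainly through STAT3. In macrophages it is known for restraining inflammatory gene expression. IL-2 binds Il2rb and the common gamma chain Il2rg, with Il2ra raising the affinity, signals mainly through STAT5, and drives growth of activated T cells and NK cells. Il10ra is found on lymphoid and myeloid cells, whereas Il2rb is largely a lymphocyte chain. For a protein that brings Il2rb to the IL-10 receptor, changes in all lineages and changes in lymphocytes only therefore answer different questions.

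Cells were assigned to 5 gates from raw UMIs (unique molecular identifiers, each counted as 1 captured transcript). The T gate held cells with at least 2 UMIs of Cd3d, Cd3e and Cd3g together. The other 4 gates held cells without any Cd3 UMI. These were the NK gate (at least 1 UMI of Ncr1, the NK receptor NKp46), the C1q macrophage gate (at least 5 of the complement genes C1qa, C1qb and C1qc), the monocyte gate (at least 2 of Chil3 and F13a1 and under 5 of C1q) and the B gate (at least 3 of Cd79a and Ms4a1). Of 44942 kept cells in the 2 compared libraries, 34344 met a gate, out of 71909 in all 3 libraries.

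The libraries differed in how their cells fell into these gates. T-gate cells numbered 10146 in the mono-IL-10 library and 14496 in the Trikine library, or 45.6% and 63.8% of kept cells, and 14123 in the combination. NK-gate cells numbered 580 and 941 (2.61% and 4.14%), with 1245 in the combination. Macrophage-gate cells went the other way, with 4186 and 1911 (18.8% and 8.42%) and 4143 in the combination. Monocyte-gate cells numbered 787 and 719 with 614 in the combination, and B-gate cells 616 and 103 with 108 in the combination. The 103 B cells of the IL-10/2-Trikine library carried 481132 UMIs, against 151717183 in its T gate, so values for B cells are the least precise.

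Total depth was 158570946, 197176873 and 175794959 UMIs for mono-IL-10, the IL-10/2-Trikine and the combination, and median depth per kept cell was 4774, 5562 and 4273 UMIs. The compared libraries shared 137 cell barcodes, and 45 to 115 cells per library met more than 1 gate. The labels call the cells T cells, but the sort took all CD45+ cells. Each of the 5 gates had the highest sum of the marker list of its name, though markers of other cells were present too. These lists include the genes that define the gates, so this order was partly fixed by the gating. The 18 T cell markers summed to 7222 to 8915 CPM (UMIs of a gene scaled to a library or gate total of 1e6) in the T gate, 1687 to 1982 in NK, 302 to 391 in B and 69.1 to 130.4 in the macrophage and monocyte gates. The 18 NK markers, among them Gzma and Fcer1g, summed to 25758 to 27751 CPM in NK, 6427 to 11234 in T and 5504 to 7607 in the myeloid gates. Macrophage markers were nearly as high in the monocyte gate (10195 to 11999 CPM) as in the macrophage gate (13074 to 14668), whereas monocyte markers summed to 24541 to 26601 CPM and to 2548 to 4049. Markers of KP1 tumor cells summed to 18.7 to 112.8 CPM per gate and those of red blood cells to at most 2.30 CPM. Droplets without a cell (10 to 100 UMIs) also held RNA, and this free RNA differed between libraries by more than most gates did, with 123 genes at least 2-fold higher (2.79% of 4409 measured) and 525 lower (11.9%). It is given beside the results as the value in empty droplets, and where no other value is given its part in them was not tested.

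For each gate and library the UMIs of a gene were summed over cells and scaled to CPM, and the log2 of the Trikine level divided by the mono-IL-10 level was taken, so that 1 is 2-fold higher and -1 is 2-fold lower. A gene was measured in a gate when its higher value of the pair was at least 50 CPM and both together held at least 20 UMIs. By these limits 3945 genes were measured in T, 3812 in NK, 3906 in macrophage, 3411 in monocyte and 3773 in the B gate, and 2373 in all 5.

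The gates differed in how much of their transcriptome moved. In the T gate, 44 genes were at least 2-fold higher (1.12%) and 137 at least 2-fold lower (3.47%). In the NK gate, 90 were higher (2.36%) and 66 lower (1.73%). The macrophage gate held far fewer, 23 higher (0.589%) and 2 lower (0.0512%), and the monocyte gate 12 higher (0.352%) and 4 lower (0.117%). The B gate held 114 higher (3.02%) and 361 lower (9.57%). Put the other way, 97.5% of genes lay within 1.5-fold in macrophages and 96.7% in monocytes, against 81.8% in T, 83.3% in NK and 68.6% in B cells.

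**Figure D1:**
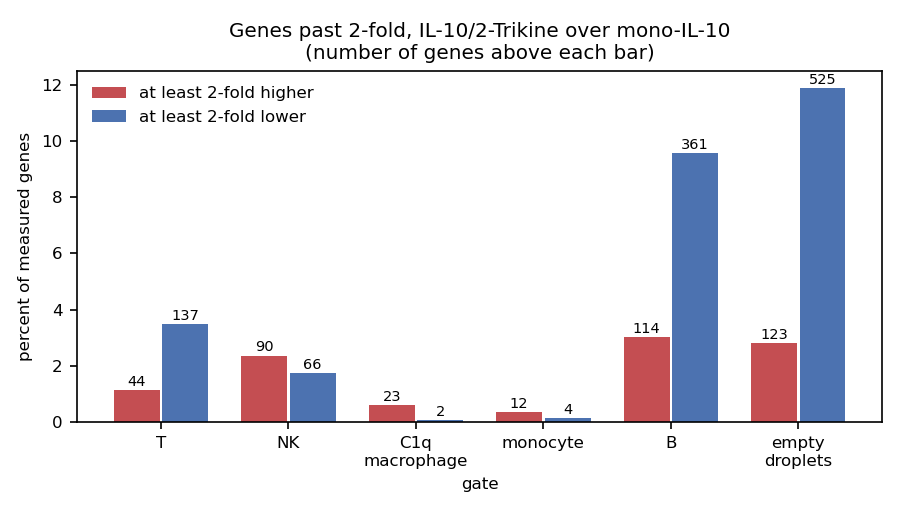
Share of measured genes (y axis, percent) that were at least 2-fold higher (red) or at least 2-fold lower (blue) with the IL-10/2-Trikine than with mono-IL-10, for each gate and for empty droplets (x axis). The number of genes stands above each bar, and the macrophage and monocyte bars are the shortest, with 2 and 4 genes lower.

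The scale of each gate bears on these counts. The median log2 ratio of all measured genes was -0.09 in T, -0.12 in NK, 0.03 in macrophage, -0.01 in monocyte and -0.20 in B cells. Trimmed mean of M-values (TMM) factors, which assume that most genes do not move, put the point of no change at -0.19 in T, -0.13 in NK, 0.05 in macrophage, 0.02 in monocyte and -0.16 in B cells. A log2 ratio below can be read against these points. Under TMM the split of higher and lower genes was 116 and 95 in T, 116 and 46 in NK and 178 and 244 in B cells, and was nearly as before in macrophages (21 and 2) and monocytes (12 and 4).

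Among the 2373 genes measured in all 5 gates, none was at least 2-fold higher in all (0.0%) and none was at least 2-fold lower in all (0.0%), and the same held for the 2511 genes measured in the 4 gates without B (0.0% each way). At 1.5-fold, 2 genes were higher in all 5 gates (0.0843%) and 3 were lower (0.126%), and the same 5 genes alone passed it in the 4 gates without B (0.0796% and 0.119% of 2511). At 2-fold, 22 genes were higher in exactly 1 of these 4 gates (0.876%) and 60 lower (2.39%), and 4 were higher in exactly 2 (0.159%) and 21 lower (0.836%). In all, 350 genes were above 0 in every gate and 520 below 0 in every gate, or 14.7% and 21.9%. This split moved with the scale, to 480 and 465 with TMM factors and 540 and 439 with each gate centred on its median. All gates compare the same 2 libraries and share their free RNA, and no value of these counts without a treatment difference was available. Among the 4 gates without B, no gene was 2-fold higher in 1 gate and 2-fold lower in another.

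The promoters of the shared genes were read for common motifs. Of the 5 genes, 3 had a promoter among the RefSeq sequences used here (build GRCm38.p6, 250 bases before to 50 after a start site). Lgals1 and Crem had none in this lookup. It left out the sequences of a single chromosome, which the share over all promoters given below did not. A gene without a match here may therefore still have a promoter sequence. The promoters of Cmss1 and Lars2 are shown because these genes moved by nearly the same amount in every gate. Cmss1 lies at chr16:57606818-57607117 on the minus strand and Lars2 at chr9:123366677-123366976 on the plus strand, each written 5′ to 3′ with capitals marking a cAMP response element (CRE), the site that Crem-family factors bind.
Cmss1: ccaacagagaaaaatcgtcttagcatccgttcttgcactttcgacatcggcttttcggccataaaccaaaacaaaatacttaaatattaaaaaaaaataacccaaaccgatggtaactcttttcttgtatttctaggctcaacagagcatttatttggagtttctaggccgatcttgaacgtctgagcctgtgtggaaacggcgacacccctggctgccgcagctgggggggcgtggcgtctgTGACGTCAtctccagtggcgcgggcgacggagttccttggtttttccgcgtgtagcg
Lars2: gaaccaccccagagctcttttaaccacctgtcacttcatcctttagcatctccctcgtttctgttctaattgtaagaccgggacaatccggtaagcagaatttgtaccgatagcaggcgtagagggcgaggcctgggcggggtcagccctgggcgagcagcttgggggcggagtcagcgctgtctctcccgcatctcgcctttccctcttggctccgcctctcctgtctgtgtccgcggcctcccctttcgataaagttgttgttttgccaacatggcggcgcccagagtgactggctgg

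The Cmss1 promoter held 1 CRE (TGACGTCA), starting at base 244 of the 300 bases shown. The Lars2 window and both Tgfbr1 windows held no match to this motif. None of the 4 windows matched the STAT motif TTCNNNGAA, the interferon-stimulated response element ISRE, the AP-1 motif TGANTCA or the cell cycle element TTTGAA, all searched on both strands. Among 32851 promoters of the same length, 1.79% held the CRE, 8.3% the STAT motif, 3.44% the interferon element, 7.81% the AP-1 motif and 17.9% the cell cycle element. A match describes letters in a window and is not a measured binding site.

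Lgals1, which encodes galectin-1, a secreted lectin that binds galactose-bearing glycoproteins, was higher with the IL-10/2-Trikine in every gate. In the T gate it stood at 710.5 CPM with mono-IL-10, at 1507 in the Trikine library and at 1210.5 in the combination. The NK gate held 637, 1025 and 751 CPM in the same order, and the macrophage gate 55.9, 113 and 106. Both cytokine libraries that held the Trikine were thus above mono-IL-10 in these gates. In monocytes the levels were 183, 304 and 349 CPM and in B cells 31.5, 127 and 93.0. The log2 ratio was smallest in NK, at 0.69 (95% CI, 0.61 to 0.77), and reached 1.09 in T and 2.01 (1.52 to 2.49) in B cells. Empty droplets went from 294 to 917 CPM.

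Crem encodes a factor that binds cAMP response elements, with short isoforms that act as inducible repressors. In T cells it stood at 106 CPM in the mono-IL-10 library and 165 in the Trikine library. The same 2 values were 147 and 227 in NK, 39.2 and 67.1 in macrophage, 65.5 and 115 in monocyte and 70.9 and 256 in the B gate. The combination library was higher still in all 5 gates, at 267, 312, 94.8, 155 and 319 CPM, and this was the only shared gene with that order in every gate. The log2 ratio ran from 0.63 (0.60 to 0.67) in T and 0.63 (0.46 to 0.80) in NK to 1.85 (1.52 to 2.18) in B cells. In empty droplets it went from 78.1 to 182 CPM.

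Cmss1, a relative of a yeast protein of the small ribosomal subunit, and Lars2, the mitochondrial leucyl-tRNA synthetase, were lower by similar amounts across lineages. Cmss1 went from 636 CPM in the mono-IL-10 library to 352 in the Trikine library for T, 968 to 553 in NK, 1021 to 596 in macrophage, 1217 to 711 in monocyte and 933 to 532 in B cells. Its log2 ratios spanned only -0.85 to -0.78 over the 5 gates. Lars2 went from 193 to 102 CPM in T, 236 to 134 in NK, 245 to 146 in macrophage, 284 to 174 in monocyte and 217 to 137 in B cells, or -0.92 to -0.65 on the log2 scale. In the combination library, both genes lay between the other 2 libraries in all 5 gates, for example Cmss1 at 510.3 CPM and Lars2 at 148 CPM in T. Empty droplets did not follow these genes, with a log2 ratio of 0.15 for Cmss1 and 1.99 for Lars2. Cmss1 shares its locus with Filip1l on the opposite strand, and the libraries counted introns. Lars2 was listed among rRNA-derived and nuclear-retained transcripts, and was the lowest of them in each gate. The medians of that list were -0.27 in T, -0.08 in NK (0.05 with TMM factors), -0.00 in macrophage, -0.03 in monocyte and -0.25 in B cells, and Malat1 had a log2 ratio of -0.83 in T but -0.00 in macrophage. After subtraction of the empty-droplet profile Cmss1 was at 2.82 in B cells and Lars2 at -2.81 in monocytes, so the similar sizes, and for Cmss1 the shared direction, did not hold under that correction. In the B gate the correction took 28.7% of UMIs with mono-IL-10 but 7.64% with the IL-10/2-Trikine, and the part of this gap was not tested.

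Tgfbr1, the type I receptor of TGF-β, was lower in every gate but by unequal amounts. It went from 126 to 40.5 CPM in T, 113 to 47.0 in NK and 185 to 79.0 in B cells, log2 ratios of -1.64, -1.27 and -1.21. In macrophages, where its level was highest, it went from 556 to 368 CPM (-0.59, 95% CI, -0.64 to -0.54), and in monocytes from 68.6 to 44.7 (-0.62, -0.86 to -0.38). The combination lay between in all 5 gates. Of T-gate cells, 16.9% carried at least 5 C1q UMIs in the mono-IL-10 library and 8.14% in that of the Trikine, and without those cells the T-gate ratio was -0.75. Tgfbr1 in empty droplets went from 495 to 72.1 CPM, and after subtraction of the empty-droplet profile its B-gate ratio was 0.41, so its shared direction did not hold under that correction.

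**Figure D2:**
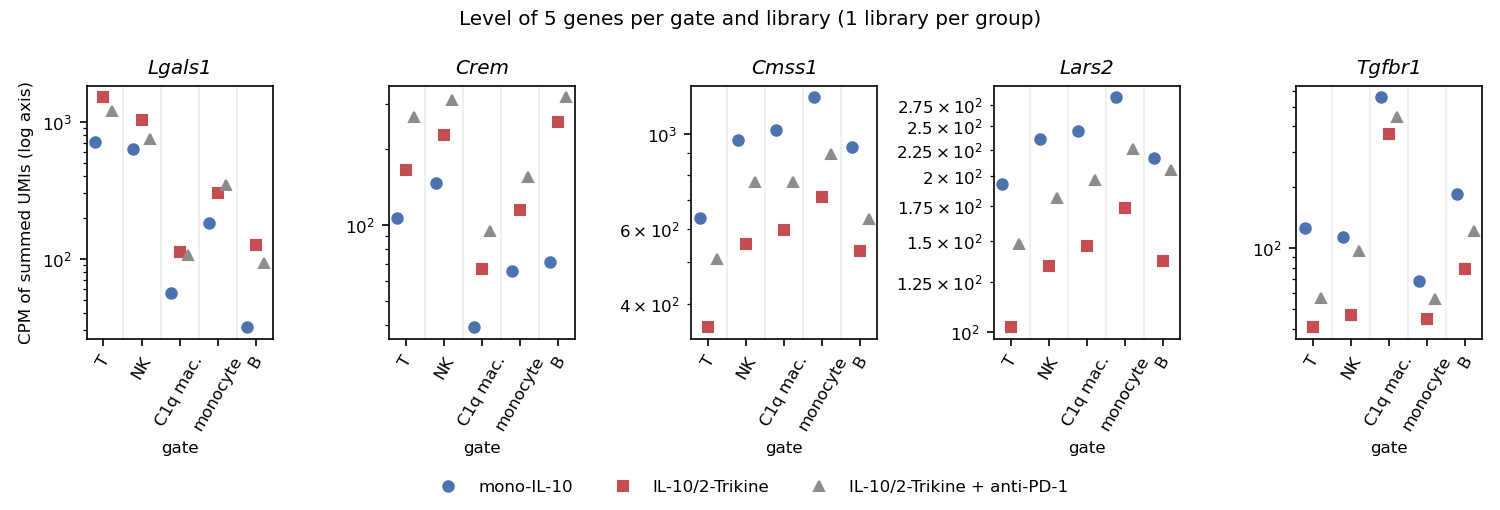
CPM of the 5 shared genes (panels, log y axis with its own range in each panel) in each gate (x axis) for the mono-IL-10 (blue circles), IL-10/2-Trikine (red squares) and combination (grey triangles) libraries, 1 point per library. Blue lies below red for Lgals1 and Crem and above it for Cmss1, Lars2 and Tgfbr1 in every gate.

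The genes next to the 1.5-fold limit were close to those inside it. Hilpda, a lipid droplet protein induced by hypoxia, missed it in monocytes alone, where it went from 122 to 182 CPM (0.58), while it stood at 136 and 243 CPM in T, 78.9 and 178 in NK, 53.1 and 104 in macrophage and 30.9 and 110.2 in B cells. On the lower side, Bcl6 was weakest in macrophages at -0.58, Rapgef1 in monocytes at -0.56, and Tgfbr2, the partner chain of Tgfbr1, in B cells at -0.48. Over 9 other settings that did not subtract the empty-droplet profile, the 5 shared genes kept their sign in every gate. Their weakest values were 0.61 for Lgals1 (NK) and 0.51 for Crem (T and NK), then -0.61 for Cmss1 (B), -0.46 for Lars2 (B) and -0.47 for Tgfbr1 (monocyte).

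Genes past 2-fold in 3 of the 4 gates without B were 3 on the higher side (0.119% of 2511) and 4 on the lower side (0.159%).

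Gzma, the gene of granzyme A, a protease of cytotoxic lymphocytes, went from 2527 to 8037 CPM in T and from 11041 to 15222 in NK. Cells with an Ncr1 UMI made up 2.93% of the T gate with mono-IL-10 and 9.47% with the Trikine, and without them the T-gate ratio was 1.65 in place of 1.67. The sum of NK markers in T went from 6427 to 11234 CPM, and from 3899.5 to 3197 with Gzma, itself on that list, left out. The list was mixed in T. Of its 11 measured genes, 4 were above 0, Gzma among them. At least 2-fold higher were 3, with Klra7 highest at 2.27, and 3 were at least 2-fold lower. Fcer1g, also on the list, had a T-gate ratio of -1.15, but of 0.65 without C1q-bearing cells. The sum without Gzma therefore does not give the direction of NK markers in T. Gzma also went from 52.9 to 273 CPM in macrophage, 28.6 to 102 in monocyte and 50.3 to 272 in B cells. The log2 ratios were 2.37, 1.83 and 2.44 (0.93 in B with doubled gate thresholds). Empty droplets held 1086 and 4489 CPM, far above the level in the 3 gates that are not known to make it, and moved by 2.05. Fabp5, a carrier of fatty acids, went from 118 to 279 CPM in T, 38.3 to 89.0 in NK and 133 to 409 in macrophage. It moved less in monocytes (281 to 372) and stood at 54.5 and 52.0 in B cells. Among cells without a UMI of the division genes Mki67 and Top2a its NK ratio was 0.01, and with only cells that met a single gate its B ratio was 1.43, so the gates that share it depend on which cells are summed. Spp1, the matrix cytokine osteopontin, went from 11.8 to 59.7 CPM in T, 179 to 361 in NK and 17.2 to 57.4 in macrophage, and from 53.8 to 38.5 in monocytes.

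On the lower side, Fos, a subunit of the AP-1 transcription factor, went from 379.8 to 168 CPM in T, 407 to 199 in NK and 1921 to 895 in monocyte. In macrophages it stood at 1441 and 1564 CPM, with no such difference. Hspa1b, an inducible Hsp70 chaperone, went from 132 to 38.2 CPM in T, 61.0 to 14.4 in NK, 152 to 58.8 in macrophage and 68.5 to 45.8 in monocyte, and from 150.1 CPM to 0 UMIs in B cells, at least 24.1-fold lower against a floor of 3 counts. Its reads are uncertain, since Hspa1a is a near-identical copy. Rasgef1b, an exchange factor for Ras-family GTPases, was at -1.71 in T, -1.72 in NK, -1.32 in monocyte and -1.78 in B cells and at -0.37 in macrophage. Saa3, an acute-phase protein of myeloid cells, was at -1.50 in T and -2.21 in NK. It went from 2709 to 1136 CPM in monocytes and, by less than 2-fold, from 280.2 to 191 in macrophages, with 511 and 68.4 in the combination.

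**Figure D3:**
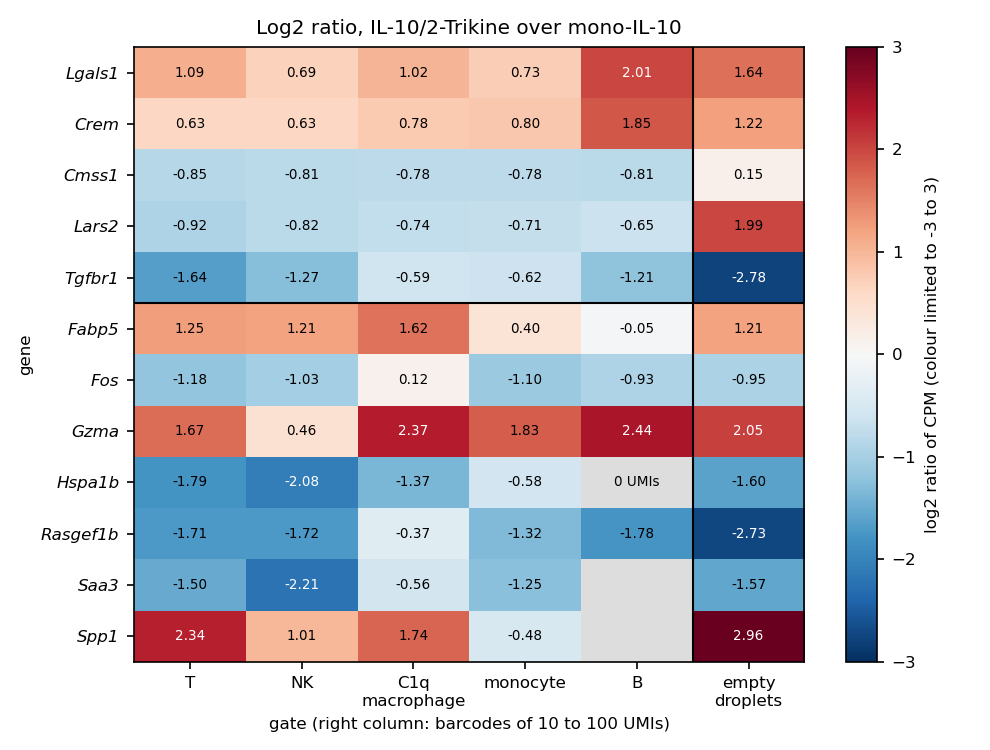
Log2 ratio of CPM, IL-10/2-Trikine over mono-IL-10 (color, limited to -3 to 3), for the 5 shared genes (top rows) and the 7 genes past 2-fold in 3 of 4 gates (bottom rows) in each gate and in empty droplets (x axis). Grey marks a gene not measured in that gate, or at 0 UMIs, and Cmss1 and Lars2 are alike across gates while Fos, Gzma and Spp1 are not.

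T and NK cells shared genes past 2-fold in both directions. Of 3493 genes measured in both, 21 were at least 2-fold higher in both (0.601%) and 34 at least 2-fold lower in both (0.973%). Among genes measured in both gates, the shared higher ones were 70.0% of 30 higher in T and 23.6% of 89 in NK. The shared lower ones were 38.6% of 88 lower in T and 59.6% of 57 in NK. The count depends on the scale, and was 59 higher and 25 lower with TMM factors. Of 3182 genes measured in T and B cells, 4 were higher and 68 lower in both. The higher ones were 36.4% of 11 in T and 5.8% of 69 in B, and the lower ones 57.1% of 119 and 27.8% of 245. The myeloid gates had few genes past 2-fold that a lymphoid gate could share. Among genes also measured in T, macrophages had 9 higher and 1 lower, of which 4 (44.4%) and the 1 passed in T, and monocytes 4 and 3, of which 1 (25%) and all 3 did. Of the 9 higher macrophage genes also measured in NK, 2 passed there (22.2%), and of 5 such monocyte genes, 2 (40.0%), while the 1 and 3 lower ones all did. The counts therefore do not rank the pairs of gates by how much they share.

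The 21 shared higher genes were in large part those of cell division, with 11 of them on the S phase or G2/M lists. Of the 3945 genes measured in T, the S phase list held 31 and the G2/M list 33. Of the 3812 measured in NK, each list held 27. Rrm2, the regulated subunit of ribonucleotide reductase, went from 119.8 to 351 CPM in T and from 29.4 to 157 in NK, with 219 and 79.4 in the combination. Birc5, the mitotic protein survivin, went from 149.9 to 344 CPM in T and from 38.3 to 182 in NK. Pclaf, a partner of the replication clamp, went from 282 to 694 CPM in T and from 70.3 to 381 in NK. The log2 ratios were larger in NK than in T cells, with medians over the 21 genes of 2.08 and 1.11. Phgdh, which opens serine synthesis, went from 49.3 to 105 CPM in T and from 23.1 to 50.9 in NK, and Tyms, which makes thymidylate, from 72.4 to 148 and from 18.6 to 79.4.

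In the other gates most of these genes were too low to measure. In macrophages 8 of the 21 were measured, with a median of 0.51, and in monocytes 3, with a median of -0.15. In B cells 6 were measured, with a median of -0.29, and there Birc5 went from 59.1 to 2.08 CPM. Cells with a UMI of Mki67 or Top2a, genes of dividing cells, made up 47.2% and 58.8% of the T gate and 25.9% and 33.4% of the NK gate. Median depth was 5174 and 7061 UMIs per T-gate cell and 3921.5 and 3704 per NK-gate cell. The part of depth in these shares was not tested. Among cells without a UMI of Mki67 or Top2a, the medians of the 21 genes were 0.45 in T and 0.87 in NK, and 1 of the 21 (Dut) still passed the minimum level in both gates. Pclaf (1.43 in T and 2.99 in NK) and Spp1 (1.77 and 2.00) were still past 2-fold in both, at 29.7 and 38.8 CPM in T with the IL-10/2-Trikine, under that minimum. The other 19 were not, with Rrm2 at 0.62 in T and 1.84 in NK and Birc5 at 1.08 and -0.01. In empty droplets 14 of the 21 were at least 2-fold higher.

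Among the 34 shared lower genes were Jun, Zfp36, Socs3 and Ccl4, named after their values were seen. Of the whole immediate-early list, 4 of 27 were at least 2-fold lower in T and 9 of 28 in NK. Of all measured genes the shares were 3.47% and 1.73%. Jun, the partner of Fos in AP-1, went from 219 to 68.7 CPM in T and from 378 to 102 in NK, and Zfp36, which promotes decay of cytokine mRNAs, from 324 to 129 and from 485 to 128. Socs3, the feedback inhibitor downstream of STAT3, went from 198 to 96.7 CPM in T and from 264 to 129 in NK, and stood at 743 and 621 in macrophage, 763 and 635 in monocyte and 188 and 212 in B cells. Ccl4, a chemokine of activated lymphocytes and macrophages, went from 1263 to 527 CPM in T and from 2961 to 1151 in NK but from 2444 to 2915 in macrophage. Without the T-gate cells that carried 5 or more C1q UMIs, Jun in T was at -1.96, Zfp36 in T at -1.36 and Socs3 in T at -0.63.

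Most of the 34 were genes of higher level in macrophages. Sox5, a transcription factor, went from 138 to 21.1 CPM in T and from 80.7 to 18.7 in NK, against 700.1 to 434 in macrophage. Negr1, a cell adhesion molecule, went from 157 to 26.6 CPM in T and from 85.9 to 24.2 in NK, against 849 to 616 in macrophage, and Cxcl13, a chemokine for B cells, from 128 to 24.8 and from 113 to 14.1, against 805 to 652. Among NK cells without Mki67 or Top2a, Cxcl13 was at 0.92. In the mono-IL-10 library, 28 of the 34 genes were over 2-fold higher in the macrophage gate than in the T gate, or 82.4% against 7.1% of all genes measured in T and NK. Between the treatments in macrophages themselves, 29 of the 33 measured there lay within 1.5-fold, or 87.9% against 98.4% of the 2974 genes measured in T, NK and macrophages. The sum of 16 macrophage markers went the same way, from 2912 to 1061 CPM in T, 1409 to 784 in NK and 2481 to 975 in B cells, and from 4366 to 1662 in empty droplets, where 32 of the 34 genes were at least 2-fold lower. Without C1q-bearing T-gate cells, 25 of the 34 genes were still at least 2-fold lower in both gates. Of these, 13 were then under the minimum level, among them Sox5 at -3.22 and Negr1 at -5.05 in T, so 12 still counted as shared, and the T gate's count of lower genes went from 137 to 52.

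**Figure D4:**
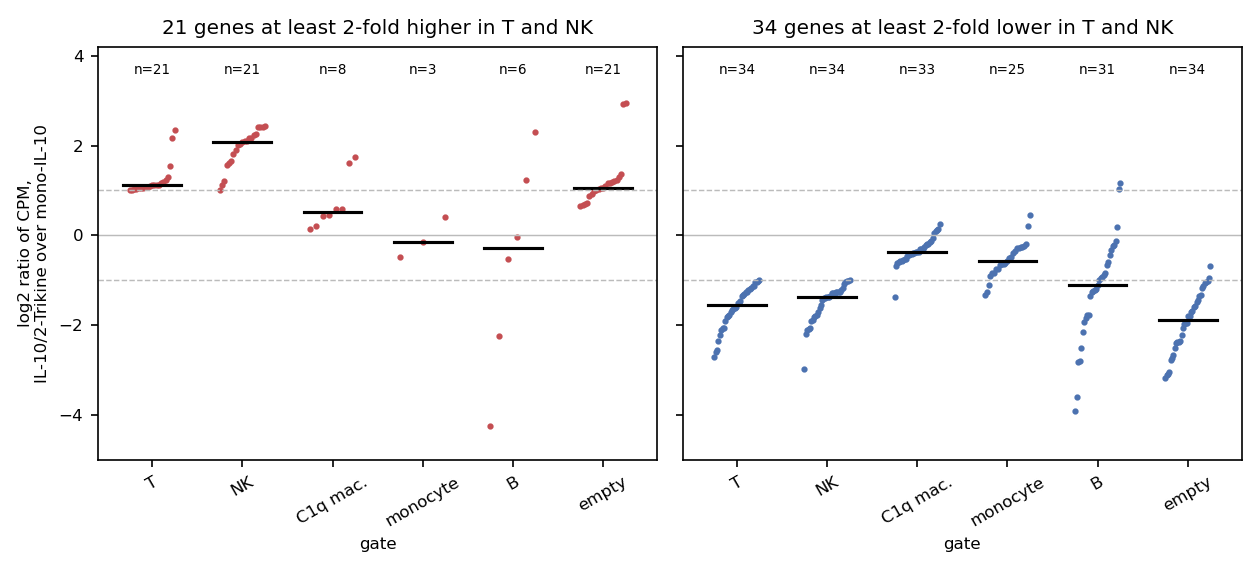
Log2 ratio of CPM, IL-10/2-Trikine over mono-IL-10 (y axis), for the 21 genes at least 2-fold higher in both T and NK (left) and the 34 at least 2-fold lower in both (right), in each gate and in empty droplets (x axis). Points are genes measured there and with UMIs in both libraries, bars are medians, dashed lines mark 2-fold, and the macrophage median of the lower genes is -0.37 while that in empty droplets is -1.88.

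Macrophages and monocytes shared 5 higher genes among 3030 measured in both (0.165%) and no lower one (0.0%). Among these were Retnla, Ccl24 and Arg1, known in mice as genes of alternatively activated macrophages. Retnla, the secreted protein RELMα, went from 9.47 to 141 CPM in macrophages (3.89, 95% CI, 3.71 to 4.08) and from 22.3 to 78.3 in monocytes (1.81, 1.53 to 2.11), with 91.0 and 4.62 in the combination. Ccl24, a chemokine for eosinophils, went from 8.41 to 129 CPM in macrophages (3.93, 3.74 to 4.14) and from 32.7 to 87.4 in monocytes (1.42, 1.17 to 1.67), with 136 and 175 in the combination. Arg1, which consumes arginine, was 4.57-fold higher in macrophages, at 59.5 CPM (2.19), and went from 20.8 to 90.1 in monocytes (2.11), with 90.9 and 101 in the combination. In the combination, Ccl24 and Arg1 were thus above mono-IL-10 in both gates, and Retnla in macrophages but not in monocytes.

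In the compared libraries these 3 transcripts were low in the lymphoid gates, at 1.22 to 17.0 CPM in T and at most 1.49 CPM in NK. Empty droplets held 31.6 CPM of Ccl24, 33.5 of Retnla and 14.0 of Arg1 with the IL-10/2-Trikine, below the level in the macrophage gate. The other 2 genes shared by both myeloid gates were the granzymes Gzma, given above, and Gzmb, which went from 50.2 to 138 CPM in macrophages and from 27.7 to 87.8 in monocytes (0.44 on the log2 scale without Mki67 or Top2a cells), against 1177 and 2667 in empty droplets.

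Macrophages also had more Mmp12, the macrophage elastase, from 17.0 to 107 CPM (2.65), Mrc1, the mannose receptor CD206, from 38.5 to 115 (1.58), the chemokine Ccl8 from 60.3 to 170.4 and Nrg1, a ligand of ErbB receptors, from 54.5 to 155 (1.51). In the combination these stood at 59.0, 70.0, 125 and 180.4 CPM, above mono-IL-10 in each case. Nrg1 went from 503 to 879 CPM in monocytes. The summed monocyte markers of the macrophage gate went from 2548 to 4049 CPM and its macrophage markers from 14668 to 13074, and the part of this mix in the macrophage values was not tested.

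Socs1, an inhibitor of JAK kinases induced by interferon-gamma and by STAT5, differed most in the gates that were not T or NK. It went from 136 to 374 CPM in monocytes (1.46, 95% CI, 1.34 to 1.58), 43.0 to 85.0 in macrophages (0.98, 0.86 to 1.11) and 32.8 to 208 in B cells (2.66, 2.25 to 3.08), with 706, 144 and 193 in the combination. In T it went from 76.6 to 102 CPM (0.41), and in NK it stood at 113 and 116 (0.03). Empty droplets held 51.9 and 89.0 CPM.

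Genes past 2-fold in 1 of the 4 gates without B and within 1.5-fold in the other 3 numbered 23 of 2511 (0.916%). Few of the 23 stayed in the set under some other choices, 2 with each cell given the same weight, 6 without Mki67 or Top2a cells and 6 with TMM factors. The T gate had 2 higher and 11 lower, the NK gate 1 higher and 6 lower, the macrophage gate 3 higher and the monocyte gate none. The B gate was not used to choose them. Of those named below, some passed 2-fold the same way there, Emb at 1.01, Nr4a2 at 1.72, Tmem176b at -1.45, Fcer1g at -1.26 and Chd9 at -1.03. Pim1 passed it the other way (1.35). With only cells that met a single gate, Tmem176b and Fcer1g in B were at 1.22 and 1.17.

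In T cells the higher ones were Ifitm2 and Cldnd1. Ifitm2, an interferon-induced membrane protein, went from 286 to 688 CPM in T, against 135 to 191 in NK, 818 to 872 in macrophage and 2648 to 2432 in monocyte. Its log2 ratio in T exceeded that in NK by 0.76 (0.58 to 0.94) and that in monocytes by 1.39 (1.35 to 1.43). With only cells that met a single gate the order with NK turned over, to 1.26 in T and 1.98 in NK, and among cells without Mki67 or Top2a it was 1.44 and -0.11, so Ifitm2 was not a T-gate gene alone under the former. Cldnd1, a membrane protein with a claudin domain, went from 53.2 to 111 CPM in T and was at 0.33 to 0.50 in the other 3. The lower T-gate genes held several of myeloid and antigen-presenting cells. Tmem176b went from 124 to 37.0 CPM, the kinase Syk from 115 to 39.2 and Fcer1g, the Fc receptor gamma chain, from 1080.1 to 486. Chd9, a chromatin remodeler, went from 76.6 to 34.9 CPM. Without C1q-bearing cells the T-gate ratio of Tmem176b was -0.35, that of Syk -1.02, that of Chd9 -0.83 and that of Fcer1g 0.65, the opposite sign, while that of Ifitm2 was 1.83.

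In NK cells, Atpif1, an inhibitor of the mitochondrial ATP synthase, was the higher one, from 48.7 to 98.0 CPM, 2.01-fold, with a 95% interval of the log2 ratio (0.73 to 1.30) that reaches below 2-fold, and a ratio of 0.32 among cells without Mki67 or Top2a. Prdm1, the transcription factor Blimp-1, went from 55.4 to 18.2 CPM in NK, and its log2 ratio there was below that of macrophages, with a difference of -1.56 (-1.96 to -1.17). Nfkbia, the NF-κB inhibitor, went from 2380.1 to 1083 CPM in NK and from 1163 to 982 in T. Pim1, a kinase gene downstream of STAT5, went from 1102 to 536 CPM in NK, but from 196 to 499 in B cells. Zfp36l1, an RNA decay factor, went from 370.5 to 165 CPM in NK.

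In macrophages the higher ones were Dok2, an adaptor that dampens kinase signaling, from 29.1 to 62.8 CPM, Emb, a cell adhesion protein, from 67.4 to 144, and Nr4a2, a nuclear receptor induced by acute stimuli, from 37.3 to 76.2. Emb stood at 639 and 715 CPM in monocytes and Nr4a2 at 137 and 143. Their macrophage ratios exceeded those of monocytes by 1.07, 0.93 and 0.97. Empty droplets moved from 167 to 344 CPM for Emb and from 94.0 to 184 for Nr4a2.

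The receptor chains for the 2 cytokines moved unequally, with list medians of -0.15 in T, -0.45 in NK, -0.16 in macrophage, 0.17 in monocyte and 0.03 in B cells (0.05 in T with TMM factors). Il10ra went from 79.3 to 31.3 CPM in T (-1.34, 95% CI, -1.40 to -1.29) and from 85.2 to 35.3 in NK (-1.27, -1.57 to -0.98), with 37.4 and 49.6 in the combination. In macrophages it stood at 200.2 and 174 CPM and in monocytes at 160.4 and 186. In B cells it went from 93.6 to 47.8. Il10ra in T was at -1.26 without C1q-bearing cells and at -0.78 among cells without Mki67 or Top2a. Il10rb lay within 0.17 of 0 on the log2 scale in T, macrophage, monocyte and B cells and at -0.48 in NK. Il2ra, the high-affinity IL-2 chain, went from 77.0 to 198 CPM in T (1.36, 1.33 to 1.40), with 179.7 in the combination, and was under the limit in the other 4 gates. In empty droplets Il10ra went from 142 to 50.4 CPM (-1.49) and Il2ra from 42.4 to 199.9 (2.24), the same directions as in T and by more. Il2rb, at 112 and 269 CPM in empty droplets, went from 234 to 285 CPM in T and from 731 to 611 in NK, and Il2rg was between -0.41 and 0.05 in all 5 gates.

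Among the transducers, 1 gene passed 2-fold in a single gate, Jak1 in B cells at -1.03. The log2 ratio of Stat3 was -0.42 in T, -0.53 in NK, -0.06 in macrophage, -0.17 in monocyte and 0.19 in B cells. Stat5b was at -0.61 in T, -0.58 in NK, -0.51 in macrophage and 0.21 in B cells. The JAK and STAT list had medians of -0.40 in T, -0.48 in NK, -0.08 in macrophage, -0.17 in monocyte and 0.19 in B cells. Of its 7 genes measured in T, none was above 0 and none was past 2-fold, though Stat4 in T was at 0.18 with TMM factors.

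In the Ifitm family, whose proteins sit in membranes and restrict virus entry, all 3 measured members were above 0 in T (median 1.26), and the medians were 0.25 in NK, 0.17 in macrophage, -0.14 in monocyte and 0.26 in B cells. Ifitm1 went from 119 to 535 CPM in T (2.17) with 462 in the combination, from 30.1 to 93.3 in NK (1.62) and from 23.6 to 116 in B cells (2.30), but from 85.9 to 117 in macrophages and from 298 to 269 in monocytes. Ifitm3 went from 223 to 310.4 CPM in T and stood at 99.7 and 100.1 in NK. Ifitm1 in empty droplets went from 47.1 to 359.7 CPM. Without the C1q-bearing cells its T-gate ratio was 2.07, and without Mki67 or Top2a cells 2.18. The NK and B values were less stable. Without Mki67 or Top2a cells Ifitm1 in NK was at 0.17 and the NK median of the family at -0.17. With only cells that met a single gate the NK median was 1.55, with Ifitm1 at 2.49 and Ifitm3 at 1.12, and Ifitm1 in B was at 0.43. Of NK-gate cells, 28 with mono-IL-10 and 33 in the Trikine library also held at least 5 C1q UMIs.

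The wider gene lists were read as counts and medians beside those of all genes. They were written with earlier results of these data known, and the counts describe them. Of the genes measured in every gate, 40.7% were higher in the Trikine library in T, 41.6% in NK and 61.2% in macrophage. The shares were 51.6% in monocyte and 35.7% in B cells. With TMM factors they were 59.1%, 54.5%, 49.7%, 46.4% and 50.2% in the same order. Counts of list genes with a positive ratio can be read against these shares.

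Genes of the cell cycle were higher in T and NK cells. Of 31 measured S phase genes in T, 31 were above 0 and 9 at least 2-fold higher (median 0.83), and in NK 27 of 27 and 18 (median 1.25). For G2/M the T gate had 33 of 33 above 0 and 4 at least 2-fold higher (0.85), and NK 27 of 27 and 23, with a median 1.62 above that of all NK genes. In macrophages the medians were 0.24 and 0.20 with no gene past 2-fold. In B cells all 13 measured G2/M genes and all 10 S phase genes were below 0 (medians -1.64 and -0.76), and 22.4% of B-gate cells with mono-IL-10 but 11.7% with the IL-10/2-Trikine had a Mki67 or Top2a UMI. Serine and one-carbon genes had medians of 0.75 in T (7 of 8 measured above 0) and 0.72 in NK (5 of 6), and the remaining gene in both was Atf4. In cells without Mki67 or Top2a the T-gate medians were 0.15 for S phase, 0.19 for G2/M and 0.16 for serine and one-carbon genes, and the NK medians 0.62, 0.36 and 0.30. In B cells the G2/M median was 0.40, the value of Ube2c, and the S phase median -0.29 among those cells. This setting leaves out cells with a UMI of Top2a, itself on the G2/M list. It therefore cannot show whether the direction of G2/M in B held. In empty droplets the medians of these lists were 0.68, 0.67 and 0.77.

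Lists tied to STAT3 and interferons had medians below 0 in T and NK cells. STAT3 and IL-10 target genes had a median of -0.64 in T, with 3 of 13 at least 2-fold lower and 1 above 0, and of -0.82 in NK, with 5 of 14 lower. In macrophages that median was -0.06 over 17 genes and in monocytes -0.26 over 18, and in B cells -0.42 over 13. Type I interferon response genes were all below 0 in T (median -0.66, 3 of 20 at least 2-fold lower, Rtp4 lowest, from 50.7 to 17.9 CPM), and had medians of -0.30 in NK, -0.12 in macrophage, -0.19 in monocyte and -0.94 in B cells. Interferon-gamma response genes had medians of -0.51 in T and -0.35 in NK, against 0.16 in macrophage, -0.03 in monocyte and -0.10 in B cells (0.06 with TMM factors). In empty droplets the medians of these 3 lists were -0.62, -0.56 and -0.45, and without Mki67 or Top2a cells the medians were -0.26, -0.21 and -0.16 in T and -0.60, -0.22 and -0.37 in NK. Without C1q-bearing cells those of T were -0.47, -0.74 and -0.62. STAT5 target genes had a median of 0.11 in T with Il2ra highest and of -0.18 in NK with Myc lowest at -1.66. In macrophage their median was 0.18, with 12 of 15 above 0, against 61.2% of the genes measured in all 5 gates. It was 0.01 in monocyte (-0.02 with TMM factors) and 0.81 in B cells with Socs1 highest. The empty-droplet median was 0.35, above that of T, and the T median was 0.37 without Mki67 or Top2a cells.

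MHC class II genes, whose products present antigen on macrophages, dendritic cells and B cells, had a median of -1.06 in T and -0.60 in NK, against -0.11 in macrophage, -0.32 in monocyte and -0.52 in B cells. H2-Aa went from 1356 to 649 CPM in T and from 6153 to 5234 in macrophage. In empty droplets the median was -1.25, and without C1q-bearing cells the T-gate median was -0.49. MHC class I genes had medians of -0.26 in T and NK, 0.04 in macrophage (-0.01 with TMM factors), -0.16 in monocyte and 0.02 in B cells, with none past 2-fold in any gate.

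Immediate-early genes were lowest in NK, with a median of -0.81 and 9 of 28 at least 2-fold lower. The medians were -0.31 in T and -0.29 in monocytes but 0.24 in macrophages, where 24 of 30 were above 0, and 0.25 in B cells, where 8 of 30 were at least 2-fold higher and 2 at least 2-fold lower. Junb went from 2345 to 1198 CPM in NK, and Nr4a1 from 419.9 to 213 in NK and from 517 to 281 in monocyte, but from 129 to 424 in B cells. Genes of lymphocyte quiescence and recirculation had medians of -0.40 in T and -0.51 in NK, which were -0.18 and -0.22 without Mki67 or Top2a cells. The same list stood at 0.30 in macrophage (6 of 8 above 0), 0.01 in monocyte (-0.01 with TMM factors) and 0.25 in B cells (8 of 13 above 0, and -0.03 without Mki67 or Top2a cells). Cytotoxic effector genes had medians of -0.11 in T and -0.06 in NK, which became 0.08 and 0.08 with TMM factors. In both gates Gzma was higher with the IL-10/2-Trikine, while Ccl3, Ccl4 and Ccl5 were below 0, as with Ccl5 from 5340.1 to 2980.4 CPM in T. In macrophages, monocytes and B cells the cytotoxic medians were 0.60, 0.91 and 1.62, and 0.60 in empty droplets. The B median was 0.03 with only cells that met a single gate and -0.36 with doubled gate thresholds, and the monocyte median -0.15 without Mki67 or Top2a cells, so neither direction held. Gzmc in monocytes went from 0.325 to 93.4 CPM, with 1.62 in the combination, and was at -0.33 among cells without Mki67 or Top2a.

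Proteasome, oxidative phosphorylation, glycolysis and heat shock genes had medians within 0.38 of 0 in all 5 gates, whereas the medians of ER chaperones in B cells and of cholesterol synthesis in T were larger. Of 23 proteasome core genes, 23 were above 0 in each of T, NK and macrophage (medians 0.32, 0.38 and 0.19) and 16 in monocytes (0.04). Oxidative phosphorylation genes had medians of 0.26 in T, 0.31 in NK, 0.14 in macrophage and 0.15 in monocyte, with 41 of 41 above 0 in NK. None of either list passed 2-fold. Glycolysis genes had medians of 0.16, 0.16, 0.13 and -0.04, and heat shock genes 0.17, 0.17, 0.22 and 0.02, with Hspa1b lowest in each, the T median at -0.13 without Mki67 or Top2a cells and the monocyte median at -0.00 with TMM factors. In B cells the medians were 0.07 for proteasome (13 of 22 above 0), 0.01 for oxidative phosphorylation (21 of 41), -0.09 for glycolysis (6 of 14) and -0.30 for heat shock genes (3 of 16). ER chaperone genes had medians of 0.08 to 0.28 in these 4 gates and of 0.78 in B cells, where 19 of 19 were above 0 and 5 at least 2-fold higher. Cholesterol synthesis genes reached 1.09 in T over 4 genes, 2 of them at least 2-fold higher (0.54 without Mki67 or Top2a cells), with Idi1 from 29.4 to 84.1 CPM, and 0.41 in monocytes over 8.

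**Figure D5:**
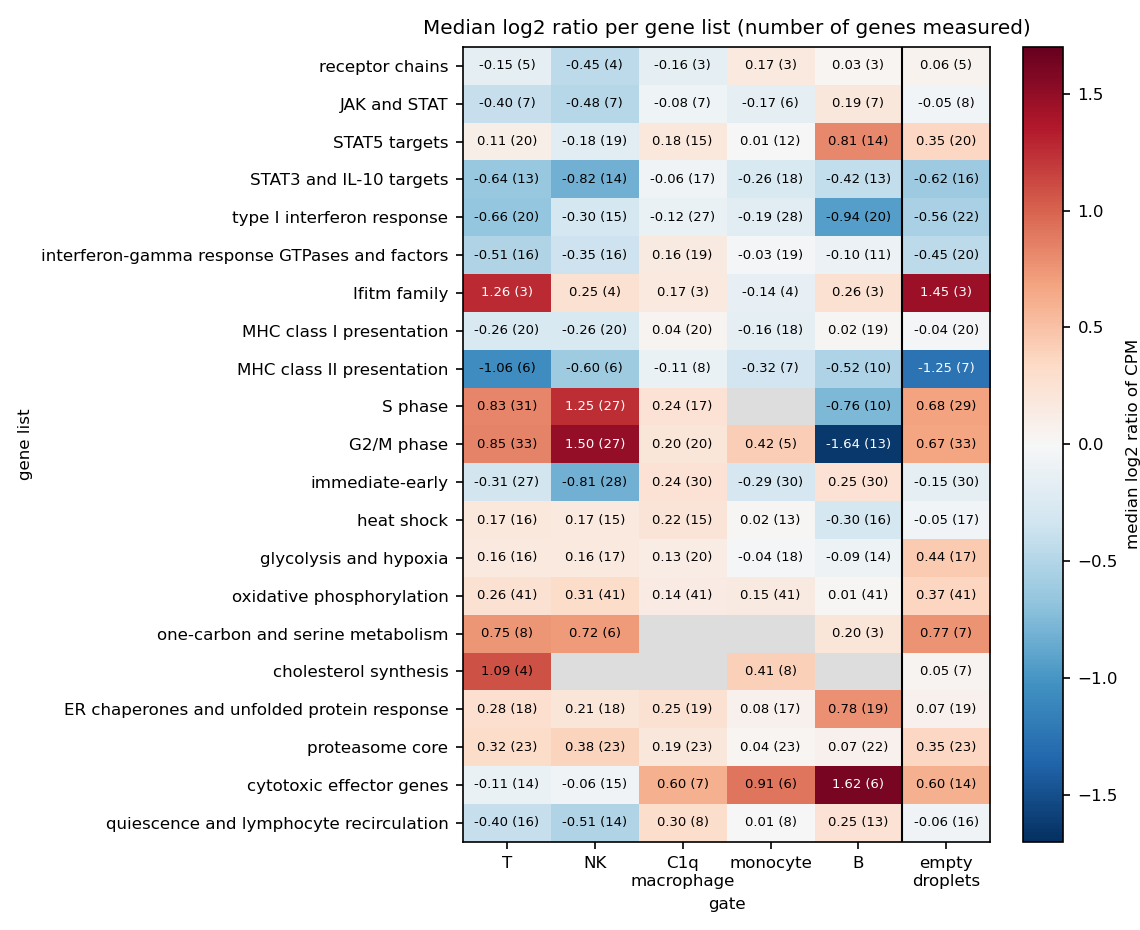
Median log2 ratio of CPM, IL-10/2-Trikine over mono-IL-10 (color), of each gene list (y axis) in each gate and in empty droplets (x axis), with the number of genes measured in parentheses and grey where under 3 were measured. The S phase and G2/M rows are high in T and NK (at least 0.83) and low in B, and the macrophage and monocyte columns lie close to 0 for most lists.

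The B gate had the largest share of genes past 2-fold. Its leading higher genes held S100a6, a calcium-binding protein, which went from 139 to 2143 CPM (3.94, 95% CI, 3.78 to 4.11) with 1776 in the combination, Lmna, a nuclear lamin, from 15.8 to 139 with 163, and Zbtb32, a zinc finger factor of activated lymphocytes, from 4.27 to 60.3 with 68.5. All 3 were thus higher in both Trikine libraries than with mono-IL-10. Prf1 (perforin), G0s2 and Cxcl3 also led, from 9.85 to 99.8, 2.30 to 52.0 and 6.24 to 118 CPM, but stood at 19.3, 1.76 and 0 CPM in the combination. With only cells that met a single gate the B ratio of Prf1 was 0.12 in place of 3.33 and that of G0s2 2.98 in place of 4.43, and with doubled gate thresholds that of Prf1 was 0.10. Neutrophil markers of the B gate summed to 84.7 and 268 CPM and monocyte markers to 1921 and 3502, against 31450 and 111870 for B cell markers, and their part in these values was not tested. The B cell list holds the antibody genes Igkc, from 18426 to 78785 CPM, and Ighm, from 1973 to 23177. Its sum therefore moved largely with these 2 genes. Leading lower genes held Mybl1 and Lair1, at 0 UMIs with the IL-10/2-Trikine and at least 9.74-fold and at least 8.69-fold lower, and Icosl, the ligand of the T cell receptor ICOS, from 61.1 to 2.08 CPM with 12.3 in the combination. T and B moved in opposite directions past 2-fold for 4 of the 3182 genes measured in both, and NK and B for 21 of 3084.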

How the data were processed

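The deposited matrices were raw UMI counts per gene and barcode for 33696 genes, empty droplets included, made by the authors with Cell Ranger from 10x 3′ libraries with introns counted. The file headers give version 8.0.0 and the processing notes mm10, whereas the study's methods name a later version and the GRCm39 build, so no coordinate was taken from the counts. Barcodes were kept from 200 detected genes up, unless over 20% of UMIs were mitochondrial, and no doublet caller was run. Gates are defined in the results. UMIs were summed per gate and library and scaled to CPM over all genes. Mitochondrial, ribosomal protein, antigen receptor, hemoglobin, Y-linked and gate genes (796 genes) were left out of counts of genes. Log2 ratios had 0.5 counts added, and their 95% intervals were exact conditional binomial ones, for counting error only. A count of 0 was set to a floor of 3 counts for a bound. Scripts were tested on simulated data and ran in Python 3.11.15 with numpy 2.4.6, scipy 1.17.1, pandas 2.3.3 and matplotlib 3.10.9, and TMM factors came from edgeR 4.0.16 in R 4.3.3, with no count model fitted.

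The rule for genes named was all genes past 2-fold in every gate, up to 4 per gate and direction past 2-fold in 1 gate only, members of the receptor, JAK and STAT and Ifitm lists and of lists far from the median of all genes in 3 or more gates, and up to 10 leading genes of the B gate per direction. Because no gene passed 2-fold in every gate, the genes shared at 1.5-fold, those in 3 of 4 gates, the pairwise shared genes and other list members were named after their values were seen. The gates, the 22 gene lists and the 9 marker lists were chosen with earlier results of these data known. Alternatives changed cell filters, gates, scale, minimum level and fold, subtracted the empty-droplet profile, or left C1q-bearing or Ncr1-bearing cells out of the T gate. This last alternative, and the counts per gate, per single gate and by sign under the others, were added after seeing the data. Genes were not compared with each other in level, since 3′ counts depend on the gene. Values of some single genes are not reported here.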

Additional observations from a re-analysis of the deposited data

How the results depend on the processing

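No paired analysis was possible because each group was 1 library. No replicate could be left out for the same reason, and the limits of depth fall on the B gate, where 1 UMI of the IL-10/2-Trikine library is 2.08 CPM, on Il2ra, measured in T alone, and on Il2rb, measured in T and NK alone. The counts of 0 genes past 2-fold in all 5 gates held under all settings at 2-fold. At 1.5-fold they became 2 higher and 3 lower, with or without the B gate. With a minimum of 20 CPM, 1 gene (Ebf1) was lower in the 4 gates without B, and with no minimum 3 were higher (Gzmc and Mmp12 among them) and 2 lower (Ebf1 and Pax5). In empty droplets Ebf1 went from 389 to 4.15 CPM and Pax5 from 85.5 to 3.19. In the B gate their log2 ratios were -0.17 and -0.64. The part of free RNA in these 2 genes was not tested. The 23 genes past 2-fold in 1 gate became 11 with each cell given the same weight (2 of the 23 among them), 14 without Mki67 or Top2a cells (6), 89 after subtraction of the empty-droplet profile (6), 44 at 20 CPM (23), 286 with no minimum (23) and 14 in the T gate without C1q-bearing cells (9), where fewer cells enter. With cells of a single gate there were 30 (16 of the 23), with doubled thresholds 32 (16), with TMM factors 16 (6) and with centring 22 (11).

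Over all settings, 84 of 2547 gene values and 51 of 833 list medians had the other sign, and 73 and 48 of these had been under 2-fold, or within 0.5 of 0 for medians. The rest, past those limits before, were as follows. With only cells of a single gate, Tmem176b in B was at 1.22, Fcer1g in B at 1.17, Gzmb in B at -0.057 and Apoe in NK at 0.50. With doubled gate thresholds, Gzmb in B was at -0.34 and the cytotoxic median in B at -0.36. Among cells without Mki67 or Top2a, Gzmc in monocytes was at -0.33, Ube2c in B at 0.40, Birc5 in NK at -0.0095, Cxcl13 in NK at 0.92, the G2/M median in B at 0.40 and the cytotoxic median in monocytes at -0.15. Subtraction of the empty-droplet profile put Tgfbr1 in B at 0.41. It removed 29.0% and 46.1% of NK-gate UMIs and reached its limit of 50% in T, so gene values of those gates were not given under it. The T gate without C1q-bearing cells put Fcer1g at 0.65. The cause of these changes was not tested. A filter of 500 genes left all 442 results in place, which means within the counting interval for genes, within 0.1 for list medians and within 1.5-fold for counts.

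Counts of genes past 2-fold per gate moved more. With each cell given the same weight, T had 72 higher and 70 lower genes (44 and 137 before), NK 33 and 40 (90 and 66) and monocytes 7 higher (12). Without Mki67 or Top2a cells, T had 22 and 55, NK 8 higher and macrophages 1 lower (2 before). Doubled thresholds gave 1 lower gene in macrophages and 7 in monocytes (4 before). TMM gave 116 higher in T and 178 in B (114 before), and centring on the median 68 in T, 173 higher in B and 239 lower in B (361 before). Subtraction of the empty-droplet profile gave 164 and 216 in T, 189 lower in NK and 214 higher in B. At 20 CPM the counts were 74 and 289 in T, 192 and 166 in NK, 46 and 4 in macrophages, 24 and 16 in monocytes and 229 and 823 in B. With no minimum they were 500 and 1791 in T, 496 and 449 in NK, 464 and 260.0 in macrophages, 257 and 169 in monocytes and 332 and 1548 in B. The T gate without C1q-bearing cells had 52 lower genes. Genes past 2-fold in both T and NK were 22 higher and 17 lower with cells of a single gate, where 30 of the 34 lower genes stayed past 2-fold and 14 of these lay under the minimum level, and 0 and 19 without Mki67 or Top2a cells, where Pclaf and Spp1 kept folds past 2 in both gates but lay under the minimum level.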

Other observations

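Antibody genes were left out of the comparison as a class, and their values in the B gate are given here, chosen after they were seen. Ighm, the heavy chain of IgM, stood at 1973 CPM for mono-IL-10, 23177 for the Trikine and 20052 for the combination. Igkc, the kappa light chain, stood at 18426, 78785 and 52146 CPM, and Jchain, which joins IgM into multimers, at 963, 4136 and 5900 CPM. Both libraries that held the Trikine were thus above mono-IL-10 for these 3 transcripts. Ighd, the heavy chain of IgD on resting B cells, went the other way, at 971, 357 and 332 CPM, as did Cr2, the complement receptor CD21, at 326, 39.5 and 36.9, and Fcer2a, the IgE receptor CD23, at 129, 29.1 and 12.3. Ebf1, a transcription factor of B cells, stood at 2093, 1862 and 1717 CPM. Empty droplets held 965 and 4886 CPM of Igkc and 323 and 1174 of Ighm in the compared libraries. The B gate held 616, 103 and 108 cells.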
